A study of Rattus norvegicus with 2 samples.

Results

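The widest RYBP peaks of newborn rat cardiomyocytes (CMs) were examined as a class of their own. RYBP is a Polycomb protein that joins the non-canonical form of PRC1, the complex that places mono-ubiquitin on histone H2A. Polycomb proteins are known both for short peaks at CpG-rich promoters and for domains that run over many kilobases around silenced developmental genes, and RYBP has also been placed at active enhancers and super-enhancers (SEs). A wide domain in a ChIP-seq list is therefore a region over which the protein was recovered without a long break, whatever its function.

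Per the labels, 1 RYBP ChIP sample and 1 input sample were prepared from wild-type CMs isolated from newborn rat heart, cultured in serum-containing medium and labelled as control for treatment. In ChIP-seq, chromatin is pulled down with an antibody against the protein and the recovered DNA is sequenced, and the input is chromatin sequenced without that step. The cells were a primary isolate, no purity was given, and no gene expression was analysed, so the labelled cell type was not checked against markers. Of the 41598 peaks that the authors called with MACS2 in the ChIP sample against the input, a wide domain was taken as any peak of at least 5000 bp (end minus start), which gave 517 wide domains and left 41081 narrower peaks. Coordinates refer to Rnor_6.0, the build of the list. No sequence or annotation of that build was used here, so neither genes nor bases are given for any domain.

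Width alone chose the wide domains, and fold enrichment, q-value and spacing come from the same ChIP against the same input. All values below are therefore descriptions of this 1 list, without a test and without a replicate. Intervals are Wilson 95% intervals for shares and exact Poisson 95% intervals for densities. They reflect counting error alone and take each peak as independent of its neighbours. The read depth behind the peaks was not analysed.

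The wide domains made up 1.24% of the peaks (95% interval 1.14 to 1.35) and 8.66% of the bases covered by peaks, 3.79 of 43.8 Mb. Their median width was 6455 bp, with quartiles of 5514 and 8334 bp. A total of 204 were under 6000 bp, 62 were at least 10000 bp and 13 were at least 15000 bp. The widths ran on through the limit without a gap. The narrowest wide domain, chr4:7204340-7209339, was exactly 5000 bp wide and had a fold enrichment of 3.39. The next pair, chr2:122879391-122884394 and chr5:144757431-144762434, were both 5004 bp wide and had fold enrichments of 3.31 and 6.06. Just under the limit lay chr7:140739907-140744904 with 4998 bp, chr5:171470503-171475499 with 4997 bp and chr10:82937667-82942662 with 4996 bp, and their fold enrichments were 7.01, 4.81 and 7.79. The limit is thus a cut through a continuous range, and the 3920 peaks of 2000 bp to under 5000 bp are given as the nearest class beside the main shares.

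The strength of the wide domains was examined first. Fold enrichment is the ratio of ChIP signal to the background expected at that place, and for a broad region MACS2 averages it over the whole width. In the wide domains it ranged from 2.86 to 18.0, with a median of 6.19 and quartiles of 4.22 and 8.34. The median was 3.32 in all narrower peaks and 4.95 in the peaks of 2000 bp to under 5000 bp, so the wide domains stood 1.86 and 1.25 times higher. Of the 517 wide domains, 487 (94.2%, 95% interval 91.8 to 95.9) exceeded the median of the narrower peaks, as did 50.5% of all peaks. The rise with width continued inside the class. The median fold enrichment was 5.37 at 4000 bp to under 5000 bp, 5.94 at 5000 bp to under 7500 bp, 6.59 at 7500 bp to under 10000 bp and 7.04 at 10000 bp or more. Across the 517 wide domains, which come from 1 list and are not independent, the Spearman rho of width with fold enrichment was 0.23. It was 0.37 among the narrower peaks, so the relation was not particular to the wide domains. The quartiles of neighbouring width classes overlapped at every step, so the trend was one of medians and single domains departed widely from it.

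**Figure D1:**
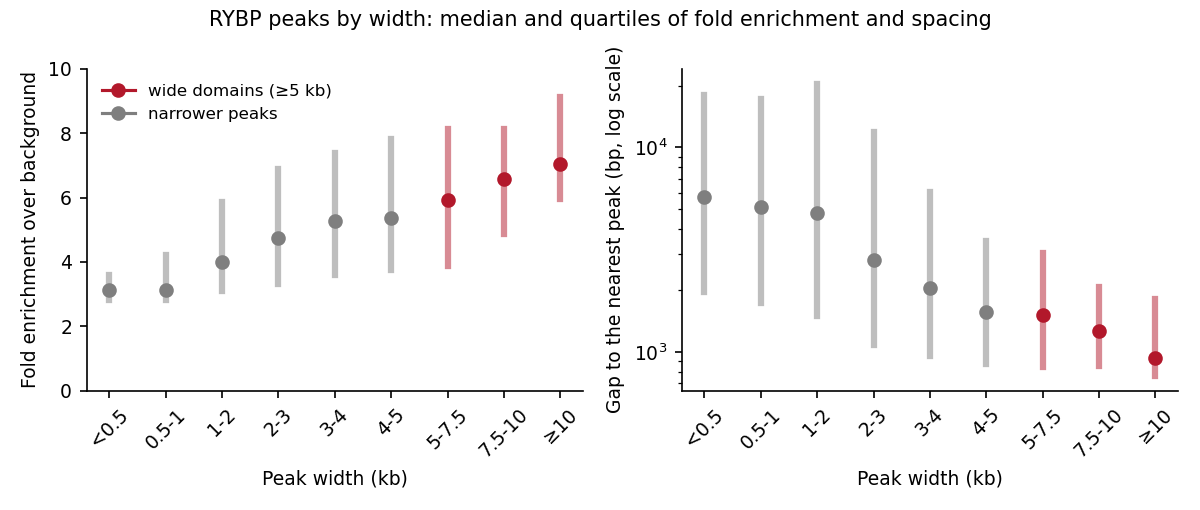
Median (point) and quartiles (bar) of fold enrichment over background, left, and of the edge-to-edge gap to the nearest peak in bp on a log axis, right, for RYBP peaks grouped by width in kb, with the 517 wide domains in red and narrower peaks in grey. Median fold enrichment climbs to 7.04 and the median gap shrinks to 930 bp in the 62 domains of at least 10 kb, while the quartile bars of neighbouring classes overlap.

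The strongest RYBP sites were mostly narrower peaks, as is the list itself. Of the 100 peaks with the highest fold enrichment, 7 were wide domains, and of the 41 with a fold enrichment of at least 15, 3 were, compared with 1.24% of all peaks. The highest wide domain ranked 10 by fold enrichment and a different one ranked 11 by −log10 q among all peaks. The strongest of them by fold enrichment was chr12:13360321-13365664, 5344 bp wide, with a fold enrichment of 18.0 and a −log10 q of 112. It was followed by chr12:51246113-51252259 with 16.2, chr7:116777938-116783044 with 15.7, chr8:107191188-107197990 with 14.8 and chr1:264966377-264978227 with 14.7. Among these 5, the domain on chromosome 1 was the only one wider than 10000 bp, at 11851 bp, and the widths of the others were between 5107 and 6803 bp. The domain on chr12:51246113-51252259 had the highest −log10 q of all wide domains, 129. Of these 5 domains, 3 were narrower than the median width of 6455 bp.

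The 5 widest domains differed in strength, with 2 below the class medians of 6.19 for fold enrichment and 20.1 for −log10 q and 3 near the upper quartile of fold enrichment and above that of −log10 q. The domain chr7:12213145-12236652 was 23508 bp wide and had a fold enrichment of 5.85 and a −log10 q of 17.7. The domain chr8:66293261-66313368, 20108 bp wide, had values of 8.71 and 40.3. Fold enrichments of 8.27 and 8.30 and −log10 q values of 40.8 and 40.4 were found for chr7:121215455-121234981 and chr17:9677816-9696832, with widths of 19527 and 19017 bp. The domain chr3:168087776-168105873 was 18098 bp wide, with a fold enrichment of 6.10 and a −log10 q of 14.3. Each of these 5 had exactly 5 other peaks within 12500 bp of its edges, and none stood alone.

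The q-value was evaluated next, which is the p-value after correction for multiple testing. In the wide domains −log10 q ran from 2.11 to 129, with quartiles of 7.55 and 35.7. A total of 359 wide domains (69.4%, 95% interval 65.3 to 73.3) reached 10, against 25.3% of all peaks and 54.5% (52.9 to 56.0) of the peaks of 2000 bp to under 5000 bp. The share was 63.9% (58.8 to 68.8) at 5000 bp to under 7500 bp and 91.9% (82.5 to 96.5) at 10000 bp or more, 57 of 62 domains. No wide domain had a −log10 q under 2, that is, a q above 0.01, whereas 28.8% of all peaks did. A count of 0 of 517, taken as at most 3 counts rather than by the Wilson method, allows a share of up to 0.580%. Although the study's methods name a false discovery rate cutoff, the list runs down to a −log10 q of 1.002, so that all peaks include 11969 regions with q above 0.01. Without these regions the 517 wide domains made up 1.74% of 29629 peaks, 34.9% of the narrower peaks reached a −log10 q of 10, and the median fold enrichment of the narrower peaks was 3.79. In the peaks of 2000 bp to under 5000 bp, 209 (5.33%) were under 2. All regions with q above 0.01 were thus narrower peaks.

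**Figure D2:**
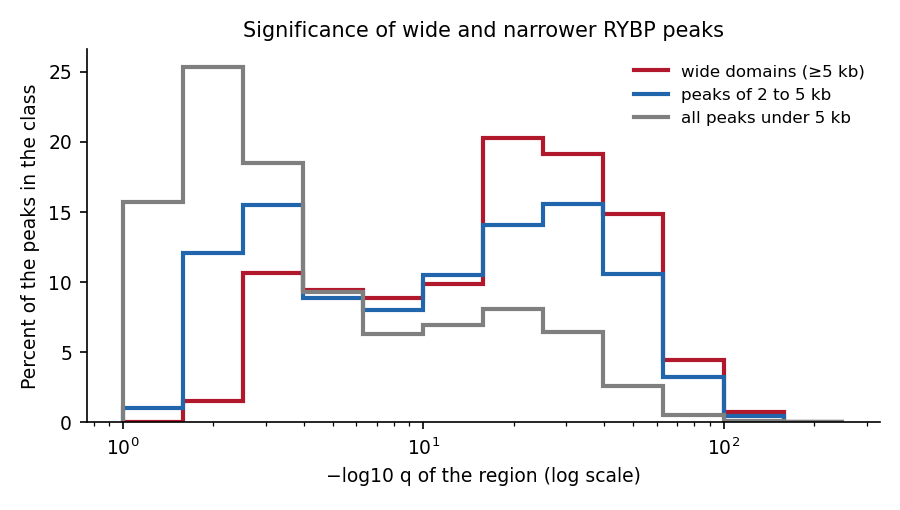
Percent of the peaks in each class by −log10 q of the region, on a log axis, for wide domains (red), peaks of 2000 bp to under 5000 bp (blue) and all peaks under 5000 bp (grey). Most wide domains lie to the right of 10, with 20.3% between 15.8 and 25.1, while a smaller shoulder of 10.6% lies between 2.51 and 3.98.

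The 158 wide domains with −log10 q under 10 are called weak here and the 359 others strong. Fold enrichment and −log10 q had a Spearman rho of 0.977 among the wide domains. Splitting by −log10 q therefore also sorts by fold enrichment, and the split is a cut through a range rather than a separate group. In the 158 with −log10 q under 10 the fold enrichment had a median of 3.69 and quartiles of 3.39 and 4.13, and the median width was 5769 bp. In the 359 others it had a median of 7.60 and quartiles of 6.09 and 9.08, and the median width was 6803 bp. The lowest fold enrichments were found on chromosome 7, at chr7:140517610-140522699 with 2.86, chr7:11278639-11284395 with 2.94 and chr7:117358754-117365161 with 2.94. Their −log10 q values were 2.12, 2.19 and 2.21, and their widths were 5090, 5757 and 6408 bp. Counted per domain, the joined regions around the weak domains held more peaks than those around the strong ones. Joining all peaks that lie less than 12500 bp apart, the distance the study used for stitching enhancers, the median joined region around a weak wide domain held 16 peaks and that around a strong one 7. A region with several wide domains counts once for each of them, so the domains are not separate observations. Regions of 20 or more peaks held 65 of the 158 weak domains (41.1%), 74 of the 359 strong ones (20.6%) and 3 of the 61 with −log10 q of at least 50 (4.92%), against 9.28% of all peaks. Of the peaks of 2000 bp to under 5000 bp, 16.2% lay in such regions. The nearest peak was about as close to weak as to strong domains, with median gaps of 1308 and 1422 bp. Of the weak and the strong domains, 94.3% and 84.1% lay in regions of 3 or more peaks. Weak and strong domains thus both had close neighbours, and counted per domain they differed in the size of the joined region.

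The spacing of the wide domains was then measured from edge to edge, so that the flank searched was equally long for wide and narrow peaks. The median gap from a wide domain to the nearest other peak was 1394 bp, with quartiles of 822 and 2686 bp. It was 4876 bp for the narrower peaks, with quartiles of 1612 and 17349 bp, and 2398 bp for the peaks of 2000 bp to under 5000 bp. In 194 wide domains (37.5%, 95% interval 33.5 to 41.8) the nearest peak lay under 1 kb away, against 14.4% of all peaks. In 403 (78.0%, 74.2 to 81.3) it lay under 3 kb away, against 40.0% of all peaks. The shares were 23.9% and 55.7% in the peaks of 2000 bp to under 5000 bp. The smallest gap between any peaks of the list was 597 bp. The median gap was shorter for the wide domains than for the narrower peaks on each of the 21 chromosomes.

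Most wide domains were surrounded by other RYBP peaks. Of the 517, 451 (87.2%, 84.1 to 89.8) belonged to joined regions of 3 or more peaks, against 56.0% of all peaks and 69.4% (68.0 to 70.9) of those of 2000 bp to under 5000 bp. On all 21 chromosomes this share was higher in the wide domains than in the narrower peaks. Peaks were present within 12500 bp on both sides of 363 wide domains (70.2%, against 39.2% of all peaks) and on only 1 side of 120 (23.2%, against 30.5%). In the peaks of 2000 bp to under 5000 bp these values were 52.7% and 26.1%. The shares in joined regions fell when weak calls were removed. Without the regions with q above 0.01, 77.4% of the wide domains and 41.8% of the narrower peaks lay in joined regions. When peaks with a −log10 q under 5 were left out, which kept 14859, the share in joined regions was 42.4% for wide domains and 14.5% for narrower peaks.

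The coverage of the flanks showed how far the crowding reached. In the first 5 kb beyond the edges of a wide domain 24.1% of the bases lay in other peaks, compared with 14.1% for peaks of 2000 bp to under 5000 bp and 7.72% for peaks under 2000 bp. Between 95 and 100 kb away the values were 10.7%, 8.38% and 6.38%. The difference between the classes was largest near the edges and had not closed at 100 kb.

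**Figure D3:**
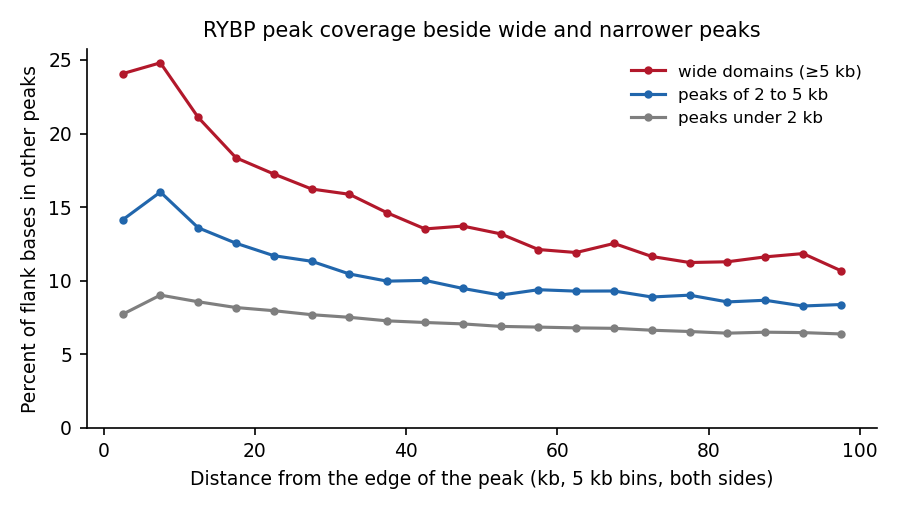
Percent of flanking bases that lie in other RYBP peaks, in bins of 5 kb out to 100 kb from both edges of wide domains (red), peaks of 2000 bp to under 5000 bp (blue) and peaks under 2000 bp (grey). The red line starts at 24.1%, falls to 10.7% and stays above the other lines in every bin.

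The wide domains were compared with the narrower peaks of the same joined regions, which share the neighbourhood. A wide domain was present in 328 of the 3492 joined regions of 3 or more peaks (9.39%). These regions spanned a median of 44.5 kb and held a median of 8 peaks, whereas those without a wide domain spanned 20.9 kb and held 4. Within the 328 regions, 451 wide domains had a median fold enrichment of 6.09 and the 3961 narrower peaks had one of 3.20. The median of the wide domains exceeded that of the narrower peaks in 317 of the 328 regions, and the median ratio over the regions was 1.77, with quartiles of 1.30 and 2.45. A wide domain carried the single highest fold enrichment in 181 of the regions (55.2%, 95% interval 49.8 to 60.5), while wide domains were 451 of their 4412 peaks. In the remaining 147 regions the peak with the highest value was a narrower one. An end of the region was formed by 88 of the 451 (19.5%), compared with 656 of all 4412 peaks in these regions (14.9%). These shares were not matched for the number of peaks in a region, which sets how often a peak is an end. No preference for the ends can therefore be read from them.

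The peaks beside the wide domains did not share their strength. A total of 1700 narrower peaks lay within 12500 bp of a wide domain. Their median fold enrichment was 3.23 and their median width 964 bp. The 39381 other narrower peaks showed medians of 3.32 for fold enrichment and 716 bp for width. The shares with −log10 q under 2 were 29.2% and 29.1%. The neighbours were thus wider at the median than other narrower peaks and not higher in enrichment.

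How often a region held a wide domain followed its number of peaks. A wide domain was found in 34 of 12595 lone peaks (0.270%, 95% interval 0.193 to 0.377), in 3.98% (3.15 to 5.01) of the regions of 3 or 4 peaks, in 17.9% (14.8 to 21.6) of those with 10 to 19 peaks and in 68 of the 132 regions of 20 or more (51.5%, 43.1 to 59.9). More peaks give more chances to hold a wide one, so the share per peak is given as well. It was 0.270% for lone peaks, 1.27% (1.01 to 1.59) in regions of 3 or 4 peaks, 1.80% (1.50 to 2.16) in those of 10 to 19 and 3.60% (3.06 to 4.23) in those of 20 or more.

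Wide domains also lay beside each other. Another wide domain was present within 12500 bp of 112 of them (21.7%, 95% interval 18.3 to 25.4), whereas 4.36% of all peaks had a wide domain at that distance. In the peaks of 2000 bp to under 5000 bp the share was 9.67% (8.78 to 10.6). These shares were not matched for crowding. The mean number of other peaks within 12500 bp was 3.81 for wide domains, 2.83 for that class and 2.08 for all peaks. Along the chromosomes the median gap between consecutive wide domains was 558 kb, with quartiles of 61.4 and 3439 kb, and 27 consecutive pairs lay within 12500 bp with no narrower peak between them. The closest pair was chr3:168077543-168087158 and chr3:168087776-168105873, which were 9616 and 18098 bp wide, had fold enrichments of 4.12 and 6.10 and were 617 bp apart. The second was chr1:266051578-266060295 and chr1:266060918-266078007, with widths of 8718 and 17090 bp, fold enrichments of 5.24 and 6.09 and a gap of 622 bp. The third was chr1:141220282-141226205 and chr1:141226845-141234074, with widths of 5924 and 7230 bp, fold enrichments of 5.94 and 6.05 and a gap of 639 bp. These gaps were just above the smallest gap of the list.

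In total the wide domains fell into 394 joined regions or lone positions. Of these, 317 held 1 wide domain, 51 held 2, 14 held 3, 10 held 4, 1 held 5 and 1 held 11. The region with 11 was chr7:11877248-12457976. Its wide domains added up to 117 kb, which was 20.2% of its span and 43.7% of its peak-covered bases. From left to right they were 13501, 9540, 11559, 5015, 23508, 6792, 10156, 7082, 6887, 11215 and 12074 bp wide. Their fold enrichments, in the same order, were 3.97, 3.77, 6.36, 6.20, 5.85, 4.80, 6.89, 4.33, 3.85, 5.05 and 5.32. All 11 were above the median of 3.38 of the narrower peaks in the region, and 8 of the 11 were below the median of 6.19 of all wide domains. The highest fold enrichment of the region, 10.8, belonged to a narrower peak. The region next in number of wide domains, chr16:20268492-20524294, had 5 with fold enrichments between 3.24 and 6.29.

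**Figure D4:**
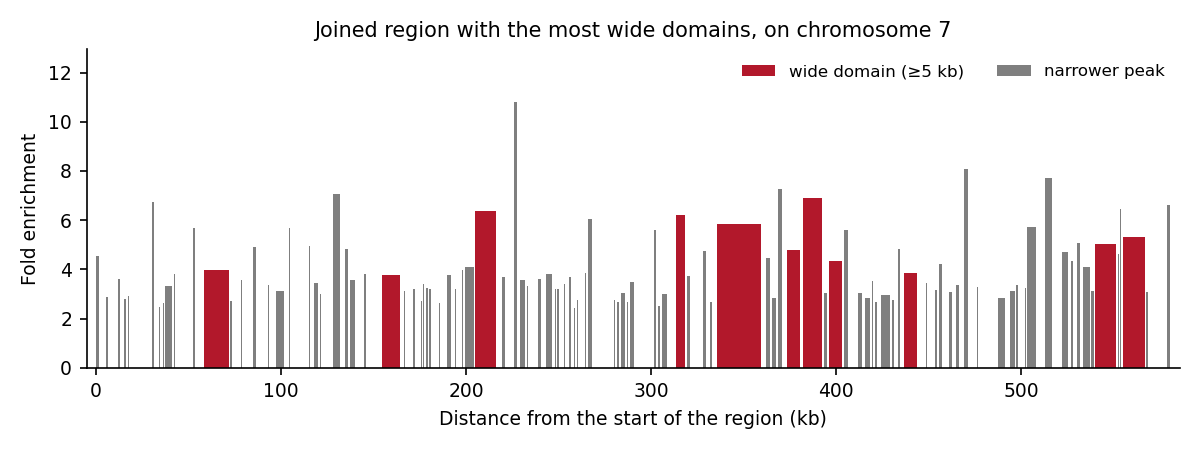
Map of the joined region with the most wide domains, chromosome 7 in Rnor_6.0, with each peak drawn to scale as a bar by its distance from the start of the region in kb and its fold enrichment, wide domains in red and narrower peaks in grey. The 11 wide domains have fold enrichments between 3.77 and 6.89 and fill 20.2% of the span.

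A minority of the wide domains stood alone. No other peak lay within 12500 bp of 34 of them (6.58%, 95% interval 4.74 to 9.05), against 30.3% of all peaks. Among the peaks of 2000 bp to under 5000 bp the share was 21.3%. These 34 were spread over 15 chromosomes, had a median width of 5944 bp and reached 15080 bp. Their median fold enrichment was 7.10, with a range of 3.69 to 12.3, and 30 of them had −log10 q of at least 10. The wide domains in joined regions of 3 or more had a median of 6.09 and the 12561 lone narrower peaks had one of 3.92. The most remote was chr15:67552761-67558697, 5937 bp wide with a fold enrichment of 6.58 and a −log10 q of 22.1, and its nearest peak was 2841 kb away. The next was chr2:136990962-136996513, 5552 bp wide with a fold enrichment of 8.44 and a −log10 q of 27.6, with the nearest peak 1837 kb away. The third, chr17:71901053-71906637, was 5585 bp wide with a fold enrichment of 6.08, and its nearest peak was 230 kb away. All 3 exceeded a −log10 q of 10. Only 6 wide domains were more than 100 kb from any other peak (1.16%, 0.533 to 2.51), against 5.16% of all peaks. In the peaks of 2000 bp to under 5000 bp the share was 5.38% (4.72 to 6.13).

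The distribution over chromosomes was then compared. Wide domains were found on all 20 autosomes and on the X chromosome, with between 3 (chromosome 18) and 69 (chromosome 7) each. Their share among the peaks of a chromosome was highest on chromosome 7, at 2.44% (95% interval 1.93 to 3.08), and on chromosome 16, at 2.21% (1.51 to 3.22). It was 1.73% (1.36 to 2.19) on chromosome 10, 0.510% (0.234 to 1.11) on chromosome 13 and 0.337% (0.115 to 0.986) on chromosome 18. These 5 intervals did not contain the value of 1.24% for all chromosomes, and the other 16 did. On the X chromosome 11 of 1093 peaks were wide (1.01%, 0.563 to 1.79), and the share on the autosomes together was 1.25% (1.15 to 1.36), a ratio of 0.81 (0.45 to 1.44), so no difference was detectable at this number of domains. When gaps under 3 kb were closed, which gave 2657 wide domains, the ratio was 0.78 (0.61 to 0.997). These ratio intervals divide the Wilson bounds of the X share by the autosomal share, taken as exact. They therefore leave out the error of the autosomal share. Per Mb between the first and last peak, chromosome 10 carried the most wide domains, 0.590 (0.456 to 0.751), and chromosome 18 the fewest, 0.0343 (0.00708 to 0.100).

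**Figure D5:**
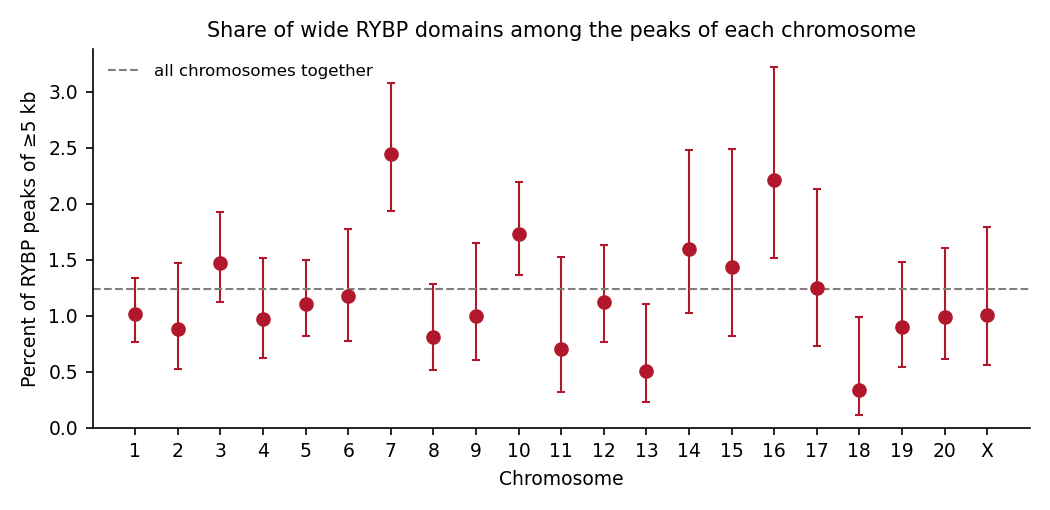
Percent of the RYBP peaks of each chromosome that are at least 5 kb wide, with Wilson 95% intervals as bars and the value for all chromosomes (1.24%) as a dashed line. Chromosomes 7, 10 and 16 lie above the line with their whole interval, and chromosomes 13 and 18 below it.

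Many of the wide domains of chromosomes 7 and 16 lay in a few places. In windows of 1 Mb, 17 wide domains began between 12 and 13 Mb of chromosome 7, 15 between 20 and 21 Mb of chromosome 16, 12 between 11 and 12 Mb of chromosome 7 and 10 between 140 and 141 Mb of chromosome 7. These 4 windows, which were singled out after their values were seen, held 54 of the 517 wide domains (10.4%) and 1.48% of all peaks. Without its 3 windows chromosome 7 had 30 wide domains among 2376 peaks (1.26%, 0.886 to 1.80), and without its single window chromosome 16 had 11 among 1010 (1.09%, 0.609 to 1.94). Both values were close to that of the whole list, which still contains these windows. The windows were chosen for their many wide domains, so their removal had to lower these shares. No other chromosome was treated this way. Among the other 2327 windows with a peak, 285 held a wide domain. Of these, 186 held 1 and 99 held between 2 and 6, which together contained 277 of the remaining 463 wide domains (59.8%).

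The strength of the wide domains also differed between chromosomes. Their median fold enrichment was above that of the narrower peaks on each of the 21 chromosomes. It was lowest on chromosome 20, at 3.75 over 16 domains, of which 5 had −log10 q of at least 10. On chromosome 5 it was 4.78 over 41 domains and on chromosome 7 it was 4.80 over 69. On chromosome 3 it was 7.67 over 52 domains, on chromosome 1 it was 7.06 over 48 and on chromosome 10 it was 5.97 over 66. The medians of 8.87, 8.45 and 8.95 on chromosomes 11, 13 and 18 rested on only 6, 6 and 3 domains. Among the chromosomes with more than 40 wide domains, those on chromosome 7 and chromosome 5 were therefore the shallowest and those on chromosome 3 the strongest. The narrower peaks of these chromosomes differed far less, with medians of 3.32, 3.21 and 3.22 on chromosomes 7, 5 and 3.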

How the data were processed

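ChIP-seq reads of 1 RYBP ChIP sample and 1 input sample were processed by the authors. According to the study's methods, reads were trimmed with Trim Galore, aligned with Bowtie2 to Rnor_6.0, freed of PCR duplicates with Samtools and used for MACS2 peak calling against the input. The methods state 2 replicates per ChIP-seq group and merging of the alignments of biological replicates, whereas no replicate is named in the labels, so whether this list pools libraries is not known. They also give a false discovery rate threshold of 0.01, above which part of the deposited list lies. The deposited broad list gives for each region a fold enrichment (a linear ratio), a −log10 p-value, a −log10 q-value and an integer score. MACS2 averages these over the region, so they rank regions within this list. The −log10 p-value and the score were not used.

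Widths, edge-to-edge gaps, joined regions (gaps under 12500 bp), flank coverage and shares were computed from the list, and the spacing step was tested on simulated data. Regions named were the 5 widest, the 5 highest and 3 lowest in fold enrichment, the 3 most remote, the 3 closest pairs, the joined region with the most wide domains and the 3 peaks on either side of the width limit. The members, lists and comparisons were chosen with earlier results of these data known. No gene or sequence was assigned, because the tables at hand are of another build (GRCr8). Alternatives were other width limits, a stricter −log10 q, merging of close peaks, other joining distances, a larger minimum of peaks and a narrower comparison class. The work was done in Python 3.11.15 with scipy 1.17.1, pandas 2.3.3, matplotlib 3.10.9 and numpy 2.4.6.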

Additional observations from a re-analysis of the deposited data

How the results depend on the processing

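The number of wide domains (517) was 914 at a width limit of 4000 bp, 313 at 6000 bp and 916 after merging peaks less than 1 kb apart, of which 505 held an original wide domain and 411 were built from narrower peaks only. Merging peaks less than 3 kb apart gave 2657. This merging, the removal of peaks with −log10 q under 2 and the list without chromosome 7 were added after seeing the data. The share of covered bases (8.66%) was 12.7% and 6.14% at these width limits, 14.4% and 10.7% without peaks of −log10 q under 5 and under 2, 15.4% and 43.6% after the 2 mergings and 8.14% without chromosome 7. The changes at other width limits, after merging and without weak peaks follow at least in part from the alternatives' own construction. This does not hold for the removal of chromosome 7, where the share of wide domains among the peaks was highest.

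The share of wide domains above the median fold enrichment of the narrower peaks (94.2%) was 97.1% at 6000 bp, 74.4% and 83.0% without peaks of −log10 q under 5 and under 2, 84.6% and 62.4% after merging within 1 and 3 kb, and 66.7% against the peaks of 2000 bp to under 5000 bp alone. The share with −log10 q of at least 10 (69.4%) was 76.4% at 6000 bp, 83.7% without peaks of −log10 q under 5, where narrower peaks had 70.5%, and 54.7% and 37.7% after merging within 1 and 3 kb. Narrower peaks had 24.9% at 6000 bp and 26.0% and 29.7% after these mergings.

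The share in joined regions (87.2%) was 42.4% and 77.4% without peaks of −log10 q under 5 and under 2, 71.8% and 92.5% for joining within 5 and 25 kb, 73.1% for a minimum of 5 peaks and 72.0% after merging within 3 kb. The corresponding values of the narrower peaks were lower each time, at 14.5%, 41.8%, 33.3%, 70.1%, 41.8% and 34.8%. The share with no other peak (6.58%) was 34.3% without peaks of −log10 q under 5, against 68.5% of narrower peaks, 11.0% without those under 2, against 41.6%, 15.1% and 4.45% for joining within 5 and 25 kb and 14.2% after merging within 3 kb. For these joinings and this merging narrower peaks had 49.4%, 19.2% and 47.2%. The share with another wide domain nearby (21.7%) was 29.5% and 16.6% at width limits of 4000 and 6000 bp, 18.2% without peaks of −log10 q under 5, 28.2% and 35.4% after merging within 1 and 3 kb, and 12.6% and 30.2% for joining within 5 and 25 kb. In the same order, narrower peaks had 6.50%, 2.70%, 2.90%, 5.90%, 10.2%, 2.02% and 6.68%. The ratio of the X chromosome to the autosomes (0.81) stayed inside its interval of 0.45 to 1.44 under each of the 7 alternatives run for it. After merging within 3 kb its own interval was 0.61 to 0.997. Such intervals leave out the error of the autosomal share, so no difference is read from this upper bound just under 1. Without chromosome 7 the other shares stayed inside their intervals, and 448 wide domains remained in the list.

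Base composition and annotated genes were planned and not run, since no genome or annotation of the build was used. No paired analysis was possible because the series has 1 ChIP sample, and for the same reason no replicate was left out. Read depth was not analysed, and the values that it limits are not known.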

Other observations

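The ends of the chromosomes were looked at after the results were seen. Within 10 Mb of the last peak of a chromosome lay 94 wide domains (18.2%, Wilson 95% interval 15.1 to 21.7) and 14.9% (14.6 to 15.3) of the narrower peaks, and on 14 of the 21 chromosomes the share of wide domains among the peaks was higher there than in the remainder of the chromosome. Within 10 Mb of the first peak the shares were 8.51% (6.40 to 11.2) and 8.35% (8.09 to 8.62). The lower bound for the wide domains at the last peak, 15.1, overlapped the interval of the narrower peaks.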
